A study of Mus musculus with 9 samples.

Results

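The genes of oxidative phosphorylation were followed across 3 groups of cultured mouse spleen cells enriched for CD4 T cells. Members were all genes whose only platform symbol begins with Nduf, Uqcr, Cox4, Cox5, Cox6, Cox7, Cox8 or Atp5, or is Sdha, Sdhb, Sdhc, Sdhd or Cycs, each represented by the brightest of its probe sets over the 9 arrays. The rule found 90 genes (117 probe sets) among the 19938 genes measured. These genes hold the 21789 probe sets with a single gene symbol, of 35556 probe sets in all. Of the 90, 34 encode structural subunits of complex I, 4 of complex II, 8 of complex III, 19 of complex IV and 17 of complex V, 1 encodes cytochrome c, and 7 (Ndufaf genes) encode assembly factors of complex I, which are not subunits of the finished enzyme. Ndufb4 and Cox7c were not analysed here.

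Oxidative phosphorylation makes ATP in the inner mitochondrial membrane. Complexes I and II pass electrons from NADH and succinate to coenzyme Q, complex III hands them to cytochrome c, and complex IV gives them to oxygen. Complexes I, III and IV pump protons, and complex V, the ATP synthase, uses the proton gradient to make ATP. Activated T cells enlarge their mitochondrial mass and respiration alongside glycolysis while they grow and divide.

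All cells came from spleens of C57BL/6J mice and spent 72 h in culture with beads coated with antibodies against CD3 and CD28, which stimulate the T cell receptor complex and its costimulatory receptor. Each group had 3 arrays. The first was of wild-type cells that received antibody to CD69 at 24 h and, at 48 h, a secondary antibody that cross-links it (CD69-activated), the second of CD69-/- cells and the third of wild-type cells, both without these antibodies. CD69, a C-type lectin of the cell surface, is displayed by lymphocytes early in activation. No control antibody is described, so exposure to antibodies and ligation of CD69 cannot be told apart. The samples are labelled biological replicates and may or may not be separate mice, and p-values therefore measure only the spread among them.

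Values are log2 intensities after RMA, with medians over all probe sets of 7.52 to 7.56 in CD69-activated, 7.40 to 7.43 in CD69-/- and 7.43 to 7.47 in wild-type arrays. The number of arrays limits the precision. The log2 level of Cd69 was 11.80, 11.84 and 11.74 in CD69-activated, 9.65, 9.49 and 9.63 in CD69-/- and 12.03, 12.12 and 12.37 in wild-type arrays, and the CD69-/- arrays were the lowest. The CD69-/- arrays also had the pattern of male cells and the other 6 that of female cells: Xist averaged 12.94 in CD69-activated, 6.01 in CD69-/- and 12.59 in wild-type arrays. Sex and genotype therefore cannot be told apart. Cd4 was bright in all groups, at 12.02 to 12.09 in CD69-activated, 12.31 to 12.39 in CD69-/- and 11.92 to 12.02 in wild-type arrays. Transcripts of the B cell gene Cd79b were bright too, averaging 13.54 in CD69-activated, 13.36 in CD69-/- and 13.61 in wild-type arrays, although CD4 T cells are not known to express this receptor chain. In bulk RNA, fewer cells of a type and less RNA per cell cannot be told apart.

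In CD69-activated cells 53 of the 90 members were lower than in wild-type cells, none was higher and 37 were not called (limma with Benjamini-Hochberg adjustment over all genes, two-sided, called at an adjusted p under 0.05, n = 3 per group). That is 58.9% of members lower, against 13.7% of all genes lower and 10.1% higher. At an unadjusted p under 0.05, 61 members were lower and 1 was higher. The differences ranged from -0.62 to 0.13 on the log2 scale with a median of -0.19, and the median over all genes was 0.02. The falls were shallow: only Atp5md and Ndufb6 reached 1.5-fold, and the smallest called difference was 0.11. Of the 53 calls 36 held under every alternative setting that tests single genes. The 17 that were lost under at least 1 were those of Ndufa5, Ndufa7, Ndufa9, Ndufb2, Ndufb9, Ndufb11, Ndufs1, Ndufs3, Ndufs4, Ndufv2, Ndufaf1, Ndufaf2, Ndufaf4, Sdhb, Uqcrb, Uqcrc2 and Atp5j2. Standard errors of the member differences ran between 0.033 and 0.092, with a median of 0.047.

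The 3 arrays of each group gave the same picture for the members as a whole. The median member level was 10.06 to 10.12 in CD69-activated, 10.43 to 10.50 in CD69-/- and 10.31 to 10.38 in wild-type arrays, with no overlap between any of the groups. All 3 arrays of CD69-activated cells lay below all 3 of wild-type cells for 62 members and above them for 1, which is a separation seen in 17.9% (lower) and 18.1% (higher) of all genes. The median SD between replicate arrays was 0.063 in CD69-activated, 0.040 in CD69-/- and 0.051 in wild-type cells.

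Most members are bright, and bright genes were called more often. Of the 90 members 63 were in the brightest 25% of genes (a mean log2 level of at least 9.67), and 41 of these 63, or 65.1%, were lower in CD69-activated cells. Among all 4985 genes of that brightness 27.3% were lower and 13.6% were higher. Of the 27 dimmer probe sets of members with several probe sets, 14 were also called lower in CD69-activated cells and none was called higher. These calls used p adjusted over all probe sets, and the share of all probe sets called was not counted. The difference had the sign of the brightest probe set in 26 of the 27.

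**Figure D1:**
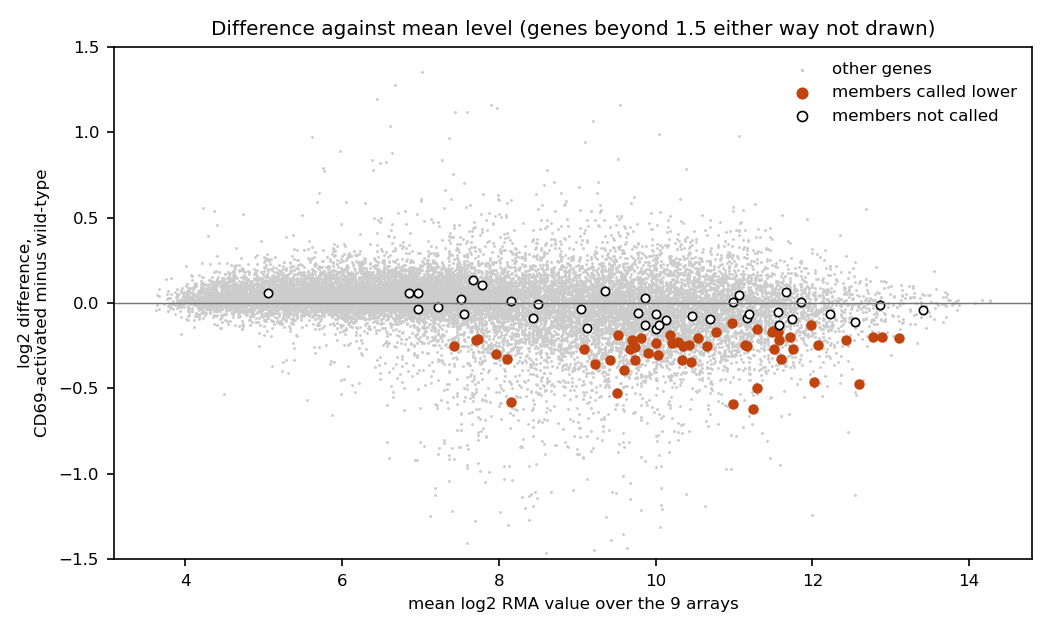
Log2 difference of CD69-activated from wild-type cells (vertical axis) against the mean log2 level over the 9 arrays (horizontal axis), with grey dots for all other genes, filled points for the 53 members called lower and open points for the 37 members not called. The members lie mostly at high levels, 63 of 90 at a mean of at least 9.67, where more of the other genes lie below 0 as well.

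**Figure D2:**
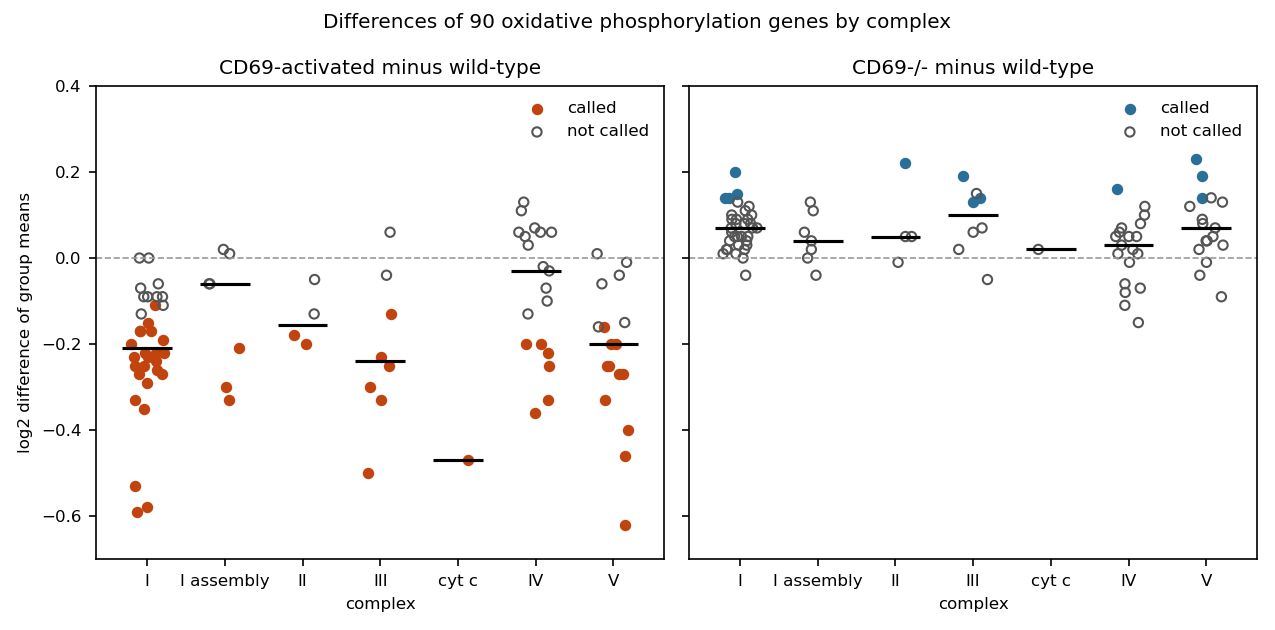
Log2 difference from wild type (vertical axis) for each of the 90 members by complex, in CD69-activated cells (left panel) and CD69-/- cells (right panel), with filled points for genes called at an adjusted p under 0.05, open points for the others and a black line at the median. Members in CD69-activated cells lie mostly below 0 (53 called lower, none higher) and those in CD69-/- cells mostly just above it (12 called higher, none lower).

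Promoter sequence was available for 74 of the 90 members (RefSeq, mouse build GRCm38.p6, 250 bases before to 50 after the annotated start). The factor NRF1 is known to act on many nuclear genes of the respiratory chain through a nearly palindromic motif, here GCGCA and GCGC with any 1 base between them. Searched on both strands, this motif was present in 18 of the 74 members (24.3%) and in 5.19% of all 27025 genes with a promoter. Among members lower in CD69-activated cells 10 of 44 (22.7%) held it, and among the other members 8 of 30 (26.7%). The 4 stretches below, each 150 bases on the minus strand of GRCm38.p6 written 5′ to 3′ in the direction of the gene, show the motif beside members of both kinds: Ndufs6 and Atp5h were lower in CD69-activated cells, and Sdha and Atp5g2 were not called. Capitals mark matches to the NRF1 motif (in Ndufs6 read from the other strand) and, in Atp5h, also 1 match to the ETS motif CCGGAAGT, read from the other strand. The stretches lie at chr13:73328483-73328632 (Ndufs6), chr11:115419920-115420069 (Atp5h), chr13:74350241-74350390 (Sdha) and chr15:102671048-102671197 (Atp5g2), each just before the annotated start of its gene.
Ndufs6: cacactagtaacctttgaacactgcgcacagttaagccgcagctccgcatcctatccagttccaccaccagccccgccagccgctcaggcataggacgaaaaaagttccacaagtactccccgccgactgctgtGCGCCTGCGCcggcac
Atp5h: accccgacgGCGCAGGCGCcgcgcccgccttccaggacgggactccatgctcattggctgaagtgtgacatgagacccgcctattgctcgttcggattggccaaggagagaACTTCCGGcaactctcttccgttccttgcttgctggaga
Sdha: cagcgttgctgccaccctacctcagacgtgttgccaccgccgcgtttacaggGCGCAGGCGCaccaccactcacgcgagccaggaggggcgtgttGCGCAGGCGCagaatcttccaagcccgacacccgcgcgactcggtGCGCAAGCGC
Atp5g2: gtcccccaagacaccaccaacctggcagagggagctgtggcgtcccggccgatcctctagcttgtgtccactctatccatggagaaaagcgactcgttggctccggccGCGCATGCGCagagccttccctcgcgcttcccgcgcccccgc

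The motif thus stood in promoters on both sides of the call. Atp5h held 1 match to the NRF1 motif, Sdha held 3, and Ndufs6 and Atp5g2 held 1 each in these stretches. The ETS motif, the core bound by GABP, was found in 5 of 74 members (6.76%) and in 4.31% of all genes, with 3 of 44 (6.82%) among the lower members and 2 of 30 (6.67%) among the others. The motif AAGATGGCG of YY1 was found in 7 of 74 members (9.46%) and in 1.64% of all genes. It was in 6 of 44 lower members (13.6%) and 1 of 30 other members (3.33%). The E-box CACGTG, the core motif of MYC, was in 6 of 74 members (8.11%) and in 8.09% of all genes. These shares describe letters within this window and were not tested.

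Complex I is the largest of the complexes and admits electrons from NADH. In CD69-activated cells 24 of its 34 structural subunits were lower than in wild-type cells and none was higher, with a median difference of -0.21. The count was 9 of 10 for the electron-input module (median -0.22), 3 of 5 for the quinone module with its junction (median -0.11) and 12 of 19 for the membrane arm (median -0.22). The 3 calls of the quinone module, Ndufs3, Ndufa9 and Ndufa5, were lost in 13, 7 and 2 of 19 alternative settings. Ndufb6, an accessory subunit of the membrane arm, had log2 levels of 10.50, 10.59 and 10.62 in CD69-activated cells, against 11.13, 11.26 and 11.09 in wild-type cells. The groups were far apart, and the CD69-activated level was 66.4% of the wild-type level (difference -0.59, SE 0.049, adjusted p = 1.3e-05). The CD69-/- levels were 11.24, 11.25 and 11.21, within 0.07 of wild type on average (adjusted p = 0.374).

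Ndufa1, an X-linked accessory subunit needed for assembly of the membrane arm, stood at 7.71, 7.87 and 7.70 in CD69-activated cells, against 8.33, 8.47 and 8.22 in wild-type cells. Its groups did not overlap, with 66.9% of the wild-type level left (difference -0.58, SE 0.065, adjusted p = 0.000106). Ndufs6, a zinc-binding subunit of the electron-input module whose promoter is printed above, had 9.34, 9.04 and 9.13 in CD69-activated cells, against 9.75, 9.72 and 9.61 in wild-type cells. The fall was to 69.4% of wild type (difference -0.53, SE 0.068, adjusted p = 0.000265). Ndufa2, an accessory subunit of the same module, had 10.12, 10.18 and 10.21 in CD69-activated cells, against 10.50, 10.57 and 10.48 in wild-type cells (difference -0.35, adjusted p = 0.000275).

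The core genes of complex I included calls close to the threshold. Ndufs1, the largest iron-sulphur subunit, had 9.22, 9.40 and 9.52 in CD69-activated cells, against 9.57, 9.58 and 9.56 in wild-type cells. The groups were apart but the CD69-activated arrays were spread widely, and the call was marginal (difference -0.19, SE 0.062, adjusted p = 0.048, and up to 0.119 under the alternative settings). Ndufv1, which binds NADH and flavin, differed by -0.23 (adjusted p = 0.00477), and its iron-sulphur partner Ndufv2 by -0.17 (adjusted p = 0.0229). Ndufs7, which carries the last iron-sulphur cluster before the quinone, differed by -0.11, and this was not called (adjusted p = 0.0703, 95% interval -0.20 to -0.02). Ndufa9, an accessory subunit at the junction of the arms, differed by -0.23 (adjusted p = 0.0269). Ndufa6, an accessory subunit of the matrix arm, differed by 0.00 (95% interval -0.09 to 0.10, adjusted p = 0.962), and Ndufs5, of the membrane arm, also by 0.00 with a wider interval (-0.21 to 0.20).

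Of the 7 complex I assembly factors, which build the enzyme but leave it, 3 were lower in CD69-activated cells: Ndufaf1 (difference -0.33, adjusted p = 0.0111), Ndufaf4 (-0.30, adjusted p = 0.0199) and Ndufaf2 (-0.21, adjusted p = 0.0366). These calls were lost in 1 (Ndufaf1), 4 (Ndufaf4) and 6 (Ndufaf2) of 19 alternative settings. Ndufaf3, Ndufaf5, Ndufaf6 and Ndufaf7 were not called, with differences of -0.06 to 0.02.

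Complex II is succinate dehydrogenase, an enzyme of both the citric acid cycle and the respiratory chain, and 2 of its 4 genes were lower in CD69-activated cells. Sdha, the flavoprotein, had log2 levels of 11.51, 11.55 and 11.54 in CD69-activated cells, against 11.63, 11.62 and 11.51 in wild-type cells. These groups overlapped, and the difference of -0.05 was not called (95% interval -0.14 to 0.04, adjusted p = 0.406). The iron-sulphur subunit Sdhb had 10.35, 10.29 and 10.50 in CD69-activated cells, against 10.62, 10.58 and 10.56 in wild-type cells (difference -0.20, adjusted p = 0.0183). The membrane anchor Sdhc had 9.98, 9.96 and 10.00 in CD69-activated cells, against 10.20, 10.20 and 10.09 in wild-type cells (difference -0.18, SE 0.041, adjusted p = 0.0076). The other anchor, Sdhd, was not called (difference -0.13, adjusted p = 0.167).

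In complex III, 6 of 8 genes were lower in CD69-activated cells, with a median difference of -0.24. Uqcrc1, a core subunit of the matrix side, had 10.90, 10.86 and 10.98 in CD69-activated cells, against 11.41, 11.43 and 11.40 in wild-type cells. Both groups were tight and lay well apart, at 70.8% of the wild-type level (difference -0.50, SE 0.042, adjusted p = 1.35e-05). Its partner Uqcrc2 differed by only -0.13 (adjusted p = 0.0295). The small subunits Uqcr10, Uqcrq, Uqcrb and Uqcr11 differed by -0.33, -0.30, -0.25 and -0.23 (adjusted p between 0.000177 and 0.0157). Uqcrfs1, the Rieske iron-sulphur protein that passes electrons to the cytochrome, had 8.98, 9.08 and 8.99 in CD69-activated cells, against 9.04, 9.07 and 9.04 in wild-type cells. The groups overlapped (difference -0.04, 95% interval -0.13 to 0.05, adjusted p = 0.574), and the hinge protein Uqcrh was not called either (0.06, adjusted p = 0.287).

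Cycs encodes cytochrome c, the mobile carrier between complexes III and IV. Its levels were 12.35, 12.31 and 12.16 in CD69-activated cells, against 12.68, 12.73 and 12.83 in wild-type cells, with no overlap. The CD69-activated level was 72.1% of wild type (difference -0.47, SE 0.062, adjusted p = 0.000285). Of the dimmer probe sets annotated to Cycs, 1 differed by -0.50 and another by 0.02, and near-identical copies of the gene could not be told apart here. The CD69-/- levels of Cycs, 12.68, 12.78 and 12.85, overlapped those of wild type (difference 0.02, adjusted p = 0.857).

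Complex IV, cytochrome c oxidase, has subunits with widespread and with tissue-restricted isoforms, which were counted separately. Of the 11 widespread subunits 6 were lower in CD69-activated cells (median difference -0.20), and of the 8 restricted isoforms 0 were lower and 0 higher (median 0.06). At an unadjusted p under 0.05, 7 widespread subunits were lower, and 1 restricted isoform was higher. Cox5a had 10.08, 10.05 and 10.17 in CD69-activated cells, against 10.42, 10.48 and 10.39 in wild-type cells (difference -0.33, SE 0.044, adjusted p = 0.000281). Ndufa4, first assigned to complex I and now placed in complex IV, had 8.80, 9.03 and 9.03 in CD69-activated cells, against 9.38, 9.30 and 9.26 in wild-type cells (difference -0.36, SE 0.062, adjusted p = 0.00174). Both had groups without overlap. Cox6a1 (-0.25, adjusted p = 0.00469), Cox5b (-0.22, adjusted p = 0.00219), Cox6c (-0.20, adjusted p = 0.00148) and the X-linked Cox7b (-0.20, adjusted p = 0.00353) were lower as well.

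Cox4i1, the regulatory subunit that binds ATP, was not among them. It had 10.98, 11.09 and 11.17 in CD69-activated cells, against 11.09, 11.06 and 10.96 in wild-type cells, with overlapping groups (difference 0.05, 95% interval -0.07 to 0.16, adjusted p = 0.581). Cox6b1 (-0.13, adjusted p = 0.0797), Cox7a2 (-0.10, adjusted p = 0.171), Cox8a (-0.07, adjusted p = 0.213) and the supercomplex factor Cox7a2l (0.03, adjusted p = 0.669) were not called.

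The restricted isoforms of complex IV were dim on these arrays in several cases and carry no detection call. Cox4i2, a lung isoform that replaces Cox4i1, had 7.97, 7.96 and 7.77 in CD69-activated, 7.65, 7.67 and 7.62 in CD69-/- and 7.78, 7.84 and 7.76 in wild-type cells. It was not called against wild type in CD69-activated cells (0.11, adjusted p = 0.18) or CD69-/- cells (-0.15, adjusted p = 0.0871). Cox8c, a testis isoform, had 7.86, 7.75 and 7.79 in CD69-activated, 7.54, 7.63 and 7.50 in CD69-/- and 7.63, 7.73 and 7.64 in wild-type cells. Its difference from wild type in CD69-activated cells was 0.13 (adjusted p = 0.0636). Cox6a2, Cox6b2, Cox7a1, Cox7b2, Cox8b and Ndufa4l2 differed from wild type by -0.03 to 0.07 in CD69-activated cells, and none was called.

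**Figure D3:**
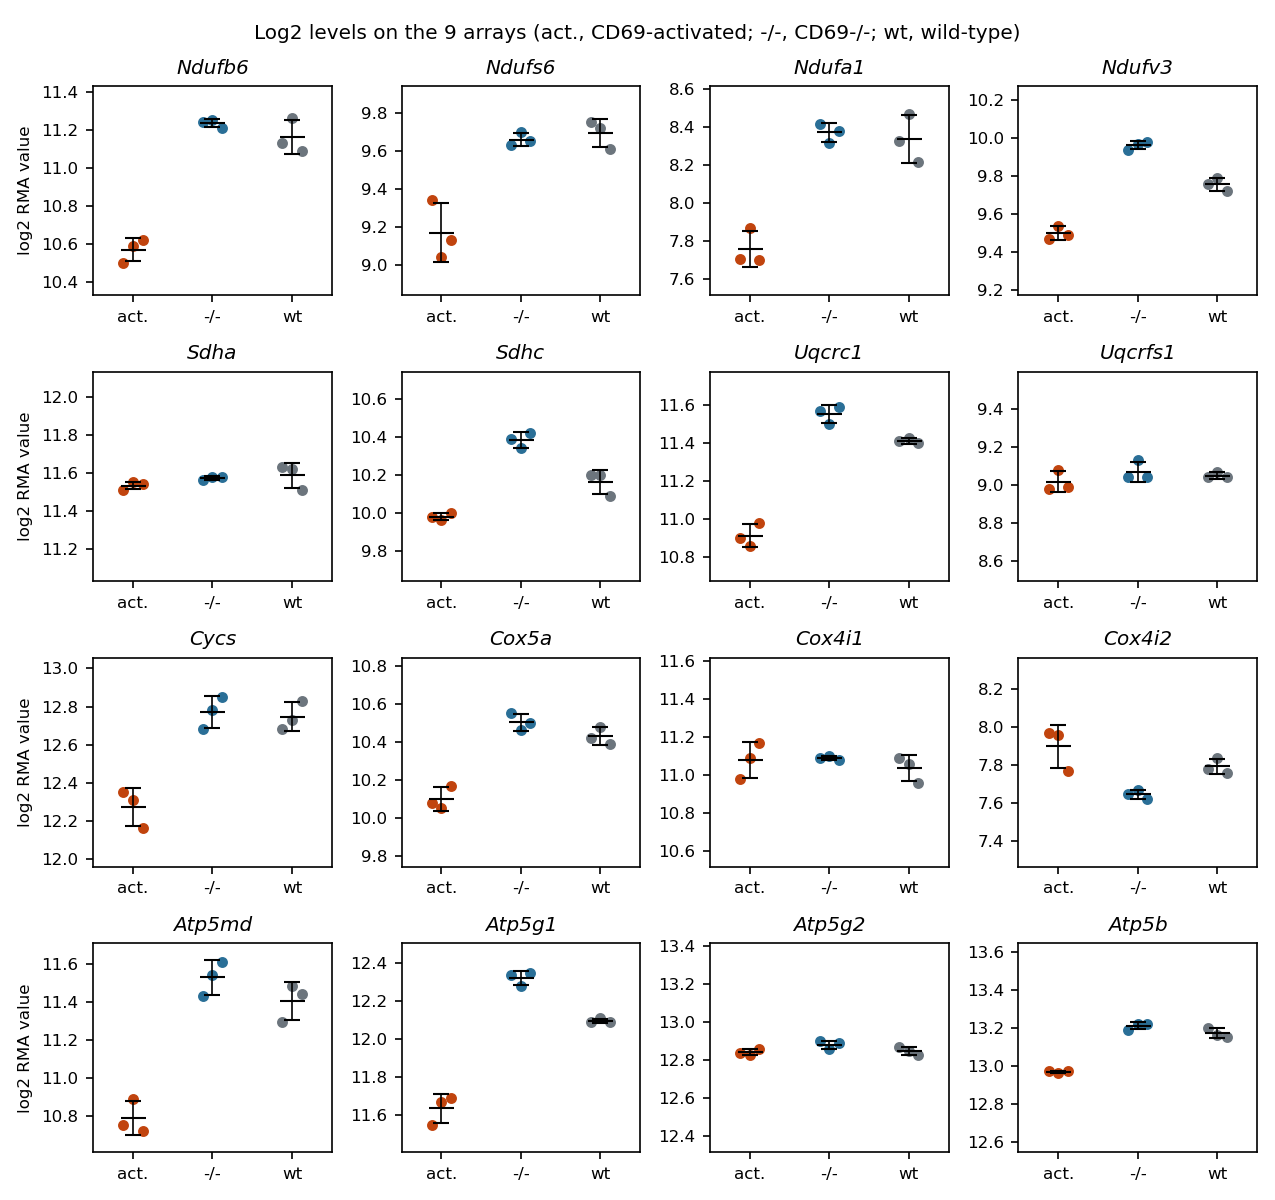
Log2 RMA values of 16 members on every array, with CD69-activated (act.), CD69-/- (-/-) and wild-type (wt) arrays from left to right, points for arrays, long bars for means and error bars for 1 SD. Ndufb6, Uqcrc1 and Atp5g1 have CD69-activated arrays below all wild-type arrays, while those of Sdha and Cox4i1 overlap with wild type; each panel has its own range of levels.

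Complex V consists of the catalytic F1 head, the rotating ring of c subunits, a peripheral stalk and small membrane subunits, and 11 of its 17 genes were lower in CD69-activated cells (median difference -0.20). The small membrane subunit Atp5md had the largest fall of all members. Its levels were 10.75, 10.89 and 10.72 in CD69-activated cells, against 11.29, 11.48 and 11.44 in wild-type cells. The groups did not overlap, and the CD69-activated level was 65.2% of wild type (difference -0.62, SE 0.065, adjusted p = 6.47e-05).

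In the F1 head the catalytic subunit Atp5b was at 12.97, 12.96 and 12.97 in CD69-activated cells, against 13.20, 13.16 and 13.15 in wild-type cells (difference -0.20, SE 0.033, adjusted p = 0.00111). Its partner Atp5a1 differed by the same amount (-0.20, adjusted p = 0.00452), and Atp5e by -0.40 (adjusted p = 0.000294). The shaft subunit Atp5c1 (0.01, 95% interval -0.08 to 0.10, adjusted p = 0.926) and Atp5d (-0.04, adjusted p = 0.437) were not called. All 4 genes of the peripheral stalk, which holds the head against rotation, were lower: Atp5h by -0.33 (adjusted p = 0.000161), Atp5j by -0.27, and Atp5o and Atp5pb by -0.25 each. The dimmer probe set of Atp5pb differed by only -0.11 and was not called, with p adjusted over all probe sets. Both dimmer ones of Atp5h differed by -0.33 and -0.35 and were called. Atp5h had 11.35, 11.36 and 11.28 in CD69-activated cells, against 11.64, 11.69 and 11.64 in wild-type cells.

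The 3 genes of the c subunit encode the same mature protein with different import signals, and 2 of the 3 were lower in CD69-activated cells. Atp5g1 had 11.55, 11.67 and 11.69 in CD69-activated cells, against 12.09, 12.11 and 12.09 in wild-type cells (difference -0.46, SE 0.043, adjusted p = 3.19e-05). Atp5g3 had 11.26, 11.30 and 11.34 in CD69-activated cells, against 11.67, 11.56 and 11.49 in wild-type cells (difference -0.27, SE 0.048, adjusted p = 0.0019). Atp5g2 had 12.84, 12.83 and 12.86 in CD69-activated cells, against 12.87, 12.85 and 12.83 in wild-type cells. Its groups overlapped, and the interval of its difference was narrow (-0.01, 95% interval -0.08 to 0.06, adjusted p = 0.849). The dimmer probe set of Atp5g1 differed by -0.42 and both dimmer ones of Atp5g2 by -0.01. Whether the probe sets of Atp5g1 and Atp5g2 also detect near-identical copies of these genes was not tested, and this holds for both comparisons with wild type. The differences between the 3 genes were not tested.

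In CD69-/- cells 12 of the 90 members were higher than in wild-type cells, none was lower and 78 were not called. This is 13.3% of members higher, against 8.36% of all genes higher and 6.78% lower, and among the brightest 25% of genes 15.0% were higher and 10.3% lower. At an unadjusted p under 0.05, 20 members were higher and 2 lower. The median member difference was 0.05, with a range of -0.15 to 0.23, and the median over all genes was -0.01. Of the 63 members in that brightest 25%, 11 (17.5%) were higher in CD69-/- cells and none was lower. All CD69-/- arrays were above all wild-type arrays for 27 members and below them for 3, against 17.3% and 15.9% of all genes.

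The 12 were spread over the complexes: 4 in complex I, 1 in complex II, 3 in complex III, 1 in complex IV and 3 in complex V. Atp5g1 had 12.34, 12.28 and 12.35 in CD69-/- cells, against 12.09, 12.11 and 12.09 in wild-type cells, which was the largest rise (difference 0.23, adjusted p = 0.00438). Sdhc had 10.39, 10.34 and 10.42 in CD69-/- cells, against 10.20, 10.20 and 10.09 in wild-type cells (difference 0.22, adjusted p = 0.00389). Ndufv3, an accessory subunit beside the NADH site, had 9.94, 9.97 and 9.98 in CD69-/- cells, against 9.76, 9.79 and 9.72 in wild-type cells (difference 0.20, adjusted p = 0.00232). In these 3 genes the groups did not overlap.

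Atp5j2, a small membrane subunit of complex V, had 11.71, 11.64 and 11.68 in CD69-/- cells, against 11.56, 11.49 and 11.42 in wild-type cells (difference 0.19, adjusted p = 0.00936). These 4 genes, Atp5g1, Sdhc, Ndufv3 and Atp5j2, kept their call under each of the 19 alternative settings that test single genes. The other 8 lost it under at least 1: Uqcrq (0.19), Cox6a2 (0.16), Ndufa2 (0.15), Ndufa10, Ndufb9, Uqcrc1 and Atp5h (0.14 each) and Uqcrh (0.13), with adjusted p between 0.0193 and 0.0496. The count of 12 depended on single arrays. It was 7, 7 and 4 without wild-type replicate 1, 2 or 3, and 5, 7 and 5 without CD69-/- replicate 1, 2 or 3.

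Direct comparison of CD69-activated with CD69-/- cells separated the most members: 65 were lower and 3 higher in CD69-activated cells, with 21.0% of all genes lower and 21.6% higher. Among the brightest 25% of genes 41.0% were lower and 20.1% higher. These groups differ at once in antibody exposure, genotype, sex and the levels of cell type markers, and these cannot be told apart here. The median member difference was -0.23 and the range -0.74 to 0.26. The largest falls were those of Atp5md (-0.74, adjusted p = 5.81e-06), Atp5g1 (-0.69, adjusted p = 5.85e-07), Ndufb6 (-0.67), Uqcrc1 (-0.64) and Ndufa1 (-0.61), each past 1.5-fold. Ndufv3 differed by -0.46 (adjusted p = 2.34e-06) and Sdhc by -0.40 (adjusted p = 1.88e-05).

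The 3 members higher in CD69-activated than in CD69-/- cells were all restricted isoforms of complex IV: Cox4i2 (0.26, adjusted p = 0.00259), Cox8c (0.24, adjusted p = 0.00185) and Cox6b2 (0.14, adjusted p = 0.044). None of the 3 was called once array medians were centred, which moved the median of all genes in this comparison by -0.13. With that centring the median member difference was -0.36 and the median over all genes -0.09.

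Both comparisons with wild type use the same wild-type arrays, so they are not independent. Members called in both are given side by side, first the difference of CD69-activated and then that of CD69-/- cells from wild type. They were Ndufv3 (-0.26 and 0.20), Ndufa2 (-0.35 and 0.15), Ndufb9 (-0.17 and 0.14), Sdhc (-0.18 and 0.22), Uqcrc1 (-0.50 and 0.14), Uqcrq (-0.30 and 0.19), Atp5g1 (-0.46 and 0.23), Atp5h (-0.33 and 0.14) and Atp5j2 (-0.16 and 0.19). The CD69-/- calls of Ndufa2, Ndufb9, Uqcrc1, Uqcrq and Atp5h were lost under some alternative settings. How many of all genes were called in both comparisons in these directions was not counted, so the pattern cannot be given as particular to members. Ndufa10, Uqcrh and Cox6a2 were called in CD69-/- cells and not in CD69-activated cells.

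Members on the X chromosome were examined apart because the CD69-/- arrays differ in sex from the rest. Ndufa1, Ndufb11 and Cox7b were all lower in CD69-activated cells (differences of -0.58, -0.17 and -0.20) and none was called in CD69-/- cells (0.04, 0.08 and 0.01). The Ndufb11 call in CD69-activated cells was lost in 10 of 18 alternative settings, among them cyclic loess and the omission of any 1 wild-type array. Leaving out all X and Y chromosome genes left 50 members lower in CD69-activated and 12 higher in CD69-/- cells.

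Other mitochondrial gene groups were counted in the same fit and are to be read beside all genes, of which 13.7% were lower and 10.1% higher in CD69-activated cells and 8.36% higher and 6.78% lower in CD69-/- cells, and beside the brightest 25% of genes, of which 27.3% were lower in CD69-activated and 15.0% higher in CD69-/- cells. Of 77 genes of the mitochondrial ribosome, which translates the subunits encoded by mitochondrial DNA, 44 were lower in CD69-activated cells than in wild type and none was higher (median -0.18, 52 lower and 0 higher at an unadjusted p under 0.05). Mrps21 (-0.66), Mrpl42 (-0.62) and Mrps36 (-0.53) had the largest differences. In CD69-/- cells 17 ribosomal genes were higher and none lower (median 0.09), led by Mrpl52 (0.36). Of the measured assembly factors outside the member rule, 36 in all, 16 were lower and 1 higher in CD69-activated cells (median -0.13), among them the complex III factor Uqcc2 (-0.42) and the copper chaperone of complex IV, Sco1 (-0.40), with the complex III factor Ttc19 higher (0.30). In CD69-/- cells 10 of these were higher, including Sco1 (0.32) and the complex III chaperone Bcs1l (0.25).

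Carriers, porins and peroxide defence had 8 of 13 genes lower in CD69-activated cells (median -0.17), with the peroxidase Prdx3 at -0.38 and the porins Vdac2 and Vdac1 at -0.32 and -0.31. Against wild type 4 were higher in CD69-/- cells and none lower, including Gpx4 (0.26) and the ADP/ATP carrier Slc25a4 (0.19). The citric acid cycle with pyruvate dehydrogenase had 6 of 18 genes (33.3%) lower and 1 higher in CD69-activated cells (median -0.11), led by Idh3a (-0.42), Suclg1 (-0.37) and Sucla2 (-0.37). In CD69-/- cells 2 (11.1%) were higher, Idh2 (0.30) and Suclg1 (0.19), and 1 was lower, Fh1 (-0.27). Coenzyme Q synthesis had 3 of 12 (25%) lower in CD69-activated cells (median -0.03), among them Coq10b (-0.41), and 2 of 12 (16.7%) higher in CD69-/- cells. These coenzyme Q shares lie near those of bright genes (27.3% and 15.0%) and above those of all genes (13.7% and 8.36%). The median level of the list was 9.05 to 9.14 in CD69-activated, 9.26 to 9.35 in CD69-/- and 9.20 to 9.31 in wild-type arrays. It thus lay under the 9.67 that bounds the bright genes.

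**Figure D4:**
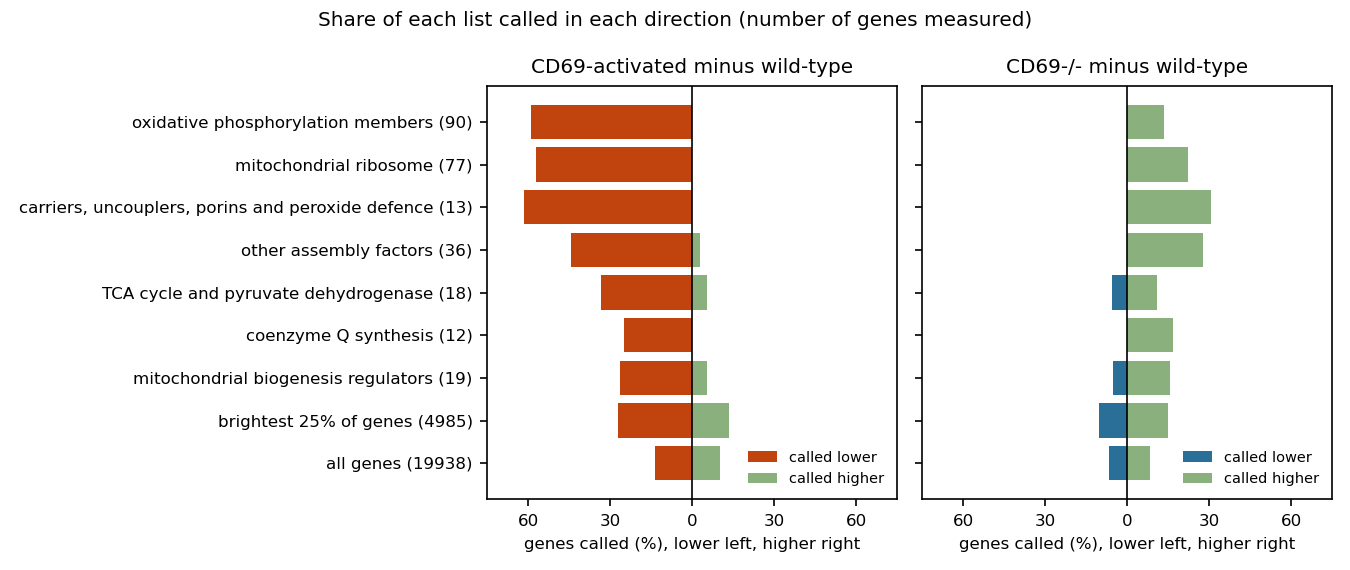
Percentage of measured genes called lower or higher, in the members, the other mitochondrial lists and all genes, for CD69-activated and CD69-/- cells against wild type. The members have 58.9% lower in CD69-activated cells, against 13.7% of all genes and 27.3% of bright genes (a mean level of at least 9.67). In CD69-/- cells 13.3% of members were higher, against 8.36% of all genes and 15.0% of these bright genes.

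The subunits that mitochondrial DNA encodes are the partners of these nuclear-encoded members. Of these, COX2 and ND3 were measured, and neither was called: COX2 differed by 0.05 in CD69-activated cells (adjusted p = 0.647) and by -0.05 in CD69-/- cells, and ND3 by -0.11 (adjusted p = 0.283) and -0.15. At an unadjusted p under 0.05 the only one of these to be lower was ND3 in CD69-/- cells.

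Among 19 regulators of mitochondrial biogenesis 5 (26.3%) were lower and 1 higher in CD69-activated cells, with a median of 0.02. Of all genes 13.7% were lower, and of bright genes 27.3%. The median level of the regulators was 9.31 to 9.41 in CD69-activated and 9.42 to 9.57 in wild-type arrays, under the 9.67 that bounds the bright genes. Myc, a transcription factor of growth, had 10.83, 10.79 and 10.81 in CD69-activated, 11.85, 11.84 and 11.86 in CD69-/- and 11.64, 11.63 and 11.56 in wild-type cells. It was thus lower in CD69-activated cells (difference -0.81, adjusted p = 1.14e-07) and higher in CD69-/- cells (0.24, adjusted p = 0.000711), with no overlap between groups. Tfam, which packages mitochondrial DNA and helps start its transcription, differed by -0.51 in CD69-activated cells (adjusted p = 0.000186) and its cofactor Tfb2m by -0.33. Nrf1 (0.12, adjusted p = 0.0928), the ETS factor Gabpa (-0.07, adjusted p = 0.162) and Yy1 (0.11, adjusted p = 0.0517) were not called. In CD69-/- cells Pprc1, a coactivator, was higher (0.27) and Ppargc1a lower (-0.20).

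Other signals moved with the same groups. All 17 measured proliferation genes were lower in CD69-activated cells than in wild type, with a median of -0.84. Their median level was 8.64 to 8.76 in CD69-activated, 10.04 to 10.16 in CD69-/- and 9.97 to 10.10 in wild-type arrays. Of 7 NK cell markers 5 were lower in CD69-activated cells (median -0.73), and both CD8 T cell markers were lower (median -0.39). Of 11 CD4 T cell markers 3 were lower (27.3%, median -0.04), as were 2 of 11 B cell markers (18.2%) with 2 higher (median -0.04). Of 13 myeloid markers (monocytes, macrophages, dendritic cells) 2 were lower (15.4%) and 4 higher (30.8%, median -0.07). Of all genes 13.7% were lower and 10.1% higher, and of the brightest 25% of genes 27.3% and 13.6%. The CD4 T cell and B cell shares of lower markers did not exceed that of the bright genes. Myeloid markers were dimmer, with medians of 8.34 to 8.54 in CD69-activated and 8.32 to 8.59 in wild-type arrays. Their share of lower genes was near that of all genes, and their share of higher genes was above it. Platelet markers were lower in 3 of 4 (median -0.25), 1 of 5 erythroid markers was lower and 1 higher (median 0.11), and 1 of 7 neutrophil markers was higher (median 0.08). The part of proliferation and of cell makeup in the member differences was not tested.

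The marker lists also differed between genotypes. All 11 CD4 T cell markers were higher in CD69-/- cells than in wild type (median 0.46), both CD8 T cell markers were higher (0.52), all 11 B cell markers were lower (-0.50), and 11 of 13 myeloid markers were lower (-0.49). The median B cell marker level was 12.21 to 12.35 in CD69-activated, 11.67 to 11.83 in CD69-/- and 12.29 to 12.37 in wild-type arrays. Erythroid markers were lower in 3 of 5 (-0.79), platelet markers in 3 of 4 (-0.29) and neutrophil markers in 1 of 7 (14.3%, -0.11). The single neutrophil call describes that gene and not its list. Of all genes 8.36% were higher and 6.78% lower in CD69-/- cells, and of the brightest 25% of genes 15.0% and 10.3%. Of the NK cell markers 3 were higher and 3 lower in CD69-/- cells (median -0.06), and 1 of 17 proliferation genes was higher and 1 lower (median 0.07). The values have no detection call, so no marker can be given as absent, and the part of cell makeup in the 12 member differences of CD69-/- cells was not tested.

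**Figure D5:**
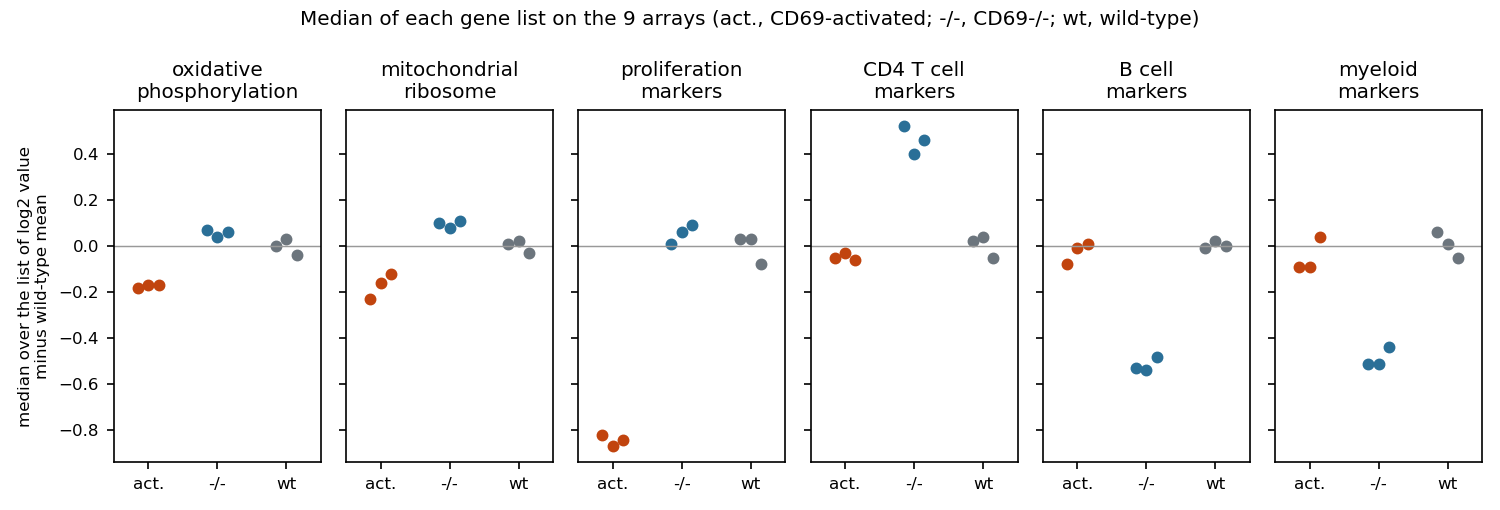
Median over each gene list of the log2 value minus its wild-type mean, 1 point per array, with CD69-activated (act.), CD69-/- (-/-) and wild-type (wt) arrays from left to right. For the members the CD69-activated arrays lie between -0.18 and -0.17, the CD69-/- arrays between 0.04 and 0.07 and the wild-type arrays between -0.04 and 0.03, and for the proliferation genes the CD69-activated arrays lie between -0.87 and -0.82.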

How the data were processed

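Total RNA from 9 samples was hybridised to 1-colour Affymetrix mouse gene arrays. The authors deposited log2 values per probe set from RMA (oligo package, R 2.12.1), per the submitters' processing notes, without its settings. RMA ordinarily makes the arrays' distributions alike and compresses large differences. The platform annotation gave 1 gene symbol for 21789 probe sets, several for 1621 and none for 12146. The brightest probe set stood for each of 19938 genes, of which 999 had more than 1. All 90 members matched the RefSeq gene table.

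A linear model with 3 group means was fitted to all 9 arrays, with no further normalization, in limma 3.58.1 under R 4.3.3 (lmFit, then eBayes with no trend). It had 6 residual and 4.78 prior degrees of freedom. Tests were two-sided, and p-values were adjusted by the method of Benjamini and Hochberg over all genes. Differences are of log2 means, and 95% intervals use the moderated spread. The procedure was tested on simulated data. Python 3.11.15 with matplotlib 3.10.9 drew the figures.

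The members and gene lists were chosen with earlier results of these data known, so no list has a test of its own: lists are described by counts and medians beside those of all genes. Named members are a fixed set of core genes, restricted isoforms with their widespread partners, the largest called changes in each comparison and complex, X-linked members, and members called in opposite directions. Other lists give up to 3 called genes with the largest change. Values of Ndufa6, Ndufs5, Ndufaf and small complex III and V genes, Cd79b, the regulators without a call and the sequences shown lie outside that rule and were picked after their values were seen. The alternatives tried were a replicate block, array weights, a robust prior with an intensity trend, fits of the compared arrays alone, cyclic loess, centred array medians, means over a gene's probe sets, adjustment over all probe sets, a 1.5-fold minimum, omission of the dimmest 25% of genes, omission of sex chromosome genes, and omission of each array.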

Additional observations from a re-analysis of the deposited data

How the results depend on the processing

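No member difference that was called changed sign under any alternative run. Of the calls, 36 of 53 for CD69-activated against wild type, 56 of 68 for CD69-activated against CD69-/- and 4 of 12 for CD69-/- against wild type held under every alternative that tests single genes. The small number of arrays limits the shallow differences, and the values give no signal over background.

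For CD69-/- against wild type, members higher numbered 7 with cyclic loess, 4 with p adjusted over all probe sets, 6 with the replicate block and 0 at a 1.5-fold minimum. Members lower numbered 1 with only the arrays compared and 1 with array weights. Leaving out 1 array gave 4 to 12 members higher and 0 to 1 lower, and over all genes 1092 to 1823 higher. Centring array medians gave a median member difference of 0.10 and 886 genes lower, and a 1.5-fold minimum left 81 genes higher and 149 lower.

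For CD69-activated against wild type, centring array medians gave a median member difference of -0.27, with 764 genes higher and 4741 lower, and moved the median of all genes by -0.08. At a 1.5-fold minimum 2 members were lower, with 56 genes higher and 260 lower. Leaving out 1 array gave 38 to 51 members lower and 0 to 1 higher. For CD69-activated against CD69-/-, centring gave a median member difference of -0.361, 0 members higher, and 1354 genes higher and 7990 lower, and cyclic loess gave a median of -0.185. At a 1.5-fold minimum 0 members were higher and 5 lower, with 275 genes higher and 526 lower. Leaving out 1 array gave 60 to 65 members lower and 2 to 4 higher. With the replicate block 50 members were lower against wild type and 65 against CD69-/-. Samples with the same replicate number did not deviate together (correlations of -0.242 to 0.142 over 9 pairs), so the block does not stand for a known pairing. The causes were not tested.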
